A study of Homo sapiens with 6 samples.

Results

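The RNA described here is that of 10 growth factor receptor tyrosine kinases: the PDGF receptors PDGFRA and PDGFRB, the stem cell factor receptor KIT, the FGF receptors FGFR1, FGFR2, FGFR3 and FGFR4, and the EGF receptor family members EGFR, ERBB2 and ERBB3. The members were all probe sets whose platform annotation names 1 of these genes and no other, which gave 47 of the 54675 probe sets on each array and 10 of 19775 genes. The cells were NTERA2/D1, an established line from a human testicular teratocarcinoma with the properties of embryonal carcinoma. After 24 h in culture they received either a scrambled siRNA that targets no particular gene (control) or siRNA against human VAMP7, a vesicle SNARE (knockdown). Transfection lasted 72 h, and total RNA was then taken and read, after biotin labelling, on 3' expression arrays, 3 arrays a group. Transfection and siRNA exposure were common to both groups, and no untransfected cells were compared. The comparison asks which transcripts differ when VAMP7 is lowered.

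Receptor tyrosine kinases are single-pass membrane proteins that pair up when a ligand binds and phosphorylate each other's tails. Adaptor proteins then carry the signal to the RAS and ERK kinases and to PI3 kinase, and feedback inhibitors such as the Sprouty proteins dampen it. Receptors are taken up into endosomes after activation and are either recycled or sent to lysosomes. KIT marks primordial germ cells and FGF signalling supports human pluripotent cells, while PDGFRA is best known in mesoderm, primitive endoderm and connective tissue. ERBB2 has no known ligand of its own, and ERBB3 has a weak kinase and signals through its partners.

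The knockdown left 5.87% of the VAMP7 signal: 153.6 ± 19.8 intensity units, where control arrays read 2615 ± 127 (SD, n = 3 each). Its log2 fold change was -3.71 (SE 0.11, limma adjusted p = 0.000362), and it was the 1 probe set called among the 54613 tested. Array medians ran from 58.85 to 67.54 units, and the 2% trimmed mean was 500.07 on each array. Knockdown replicate 1 stood apart, with a loading of 0.90 on a first principal component that held 27.2% of the variance. The titles number the arrays as biological replicates 1 to 3 in each group, without saying whether these were separate cultures or days. The descriptions of the knockdown arrays all carry replicate number 1, so the numbers used here are those of the titles. P-values measure the spread between these arrays. Of 12 measured embryonal carcinoma markers, 10 read at or above the median gene.

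Of the 10 receptors, PDGFRA had the lowest fold change, and the groups were apart on 1 of its 4 probe sets. It is therefore the gene whose sequence is shown. RefSeq (GRCh38.p14) lists starts of PDGFRA at 2 places on chromosome 4, and the 250 bases before each are chr4:54229043-54229292 and chr4:54233710-54233959, both on the plus strand. The 250 bases before the start of FGFR3, chr4:1793043-1793292 on the plus strand, are set beside them as those of a receptor whose main probe set read 4653 units or more on every array. Each is written 5′ to 3′, with capitals for the GC box, the hexamer GGGCGG or its reverse complement CCGCCC.
PDGFRA, upstream start: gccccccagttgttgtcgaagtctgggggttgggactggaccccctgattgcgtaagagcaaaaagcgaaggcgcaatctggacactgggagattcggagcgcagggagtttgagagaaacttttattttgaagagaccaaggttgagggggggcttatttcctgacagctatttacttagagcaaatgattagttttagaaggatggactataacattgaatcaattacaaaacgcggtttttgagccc
PDGFRA, downstream start: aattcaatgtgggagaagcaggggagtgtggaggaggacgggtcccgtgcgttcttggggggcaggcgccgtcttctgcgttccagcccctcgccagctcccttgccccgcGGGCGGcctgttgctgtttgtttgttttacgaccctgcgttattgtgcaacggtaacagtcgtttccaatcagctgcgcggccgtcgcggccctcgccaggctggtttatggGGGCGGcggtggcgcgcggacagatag
FGFR3: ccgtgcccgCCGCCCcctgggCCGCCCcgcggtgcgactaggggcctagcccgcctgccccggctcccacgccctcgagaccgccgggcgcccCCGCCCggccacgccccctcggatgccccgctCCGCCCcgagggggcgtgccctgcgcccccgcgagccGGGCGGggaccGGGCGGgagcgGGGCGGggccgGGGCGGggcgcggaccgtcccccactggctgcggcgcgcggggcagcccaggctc
The upstream PDGFRA window held 0 GC boxes and 8 CpG dinucleotides, the downstream one 2 GC boxes and 25 CpG dinucleotides, and the FGFR3 window 8 GC boxes and 40 CpG dinucleotides. Over the 35116 windows of this length in the table, 42.6% held a GC box on either strand and the median window held 11 CpG dinucleotides. Windows of other receptors held other numbers of GC boxes: 0 for ERBB2, 1 for KIT, 1 for PDGFRB, and 7 and 0 for the FGFR4 starts. For the EGFR starts they were 2 and 0, and for the FGFR2 starts 3, 0, 0, 1 and 0. Windows of FGFR1 and ERBB3 were not counted. Whether GC boxes go with signal was not tested. A match is a match of letters and says nothing about binding. Shortened PDGFRA transcripts that start inside the gene have been described in undifferentiated human embryonal carcinoma cells. The sources used here do not place the 4 PDGFRA probe sets along the transcript, so which transcript each one reads is not known here.

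By the reference below, each of the 10 receptors was read above signal without transcript by at least 1 probe set on all 6 arrays. The files give no detection calls, so 107 probe sets of 82 olfactory receptor genes, which are rarely transcribed outside the nose, served as a reference: their 95th percentile lay between 54.9 and 67.5 units on the 6 arrays. Of the 47 probe sets, 24 were above it on all 6 arrays (51.1%), 17 were above it on none and 6 on some. Over all 54613 probe sets, 43.7% were above it on all arrays. At the 99th percentile PDGFRA had no probe set above the level on all arrays: 203131_at was above on 5 and 215305_at on 3. Brightness depends on each probe set's own hybridisation, so the intensities below are not an order of transcript amounts between genes.

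**Figure D1:**
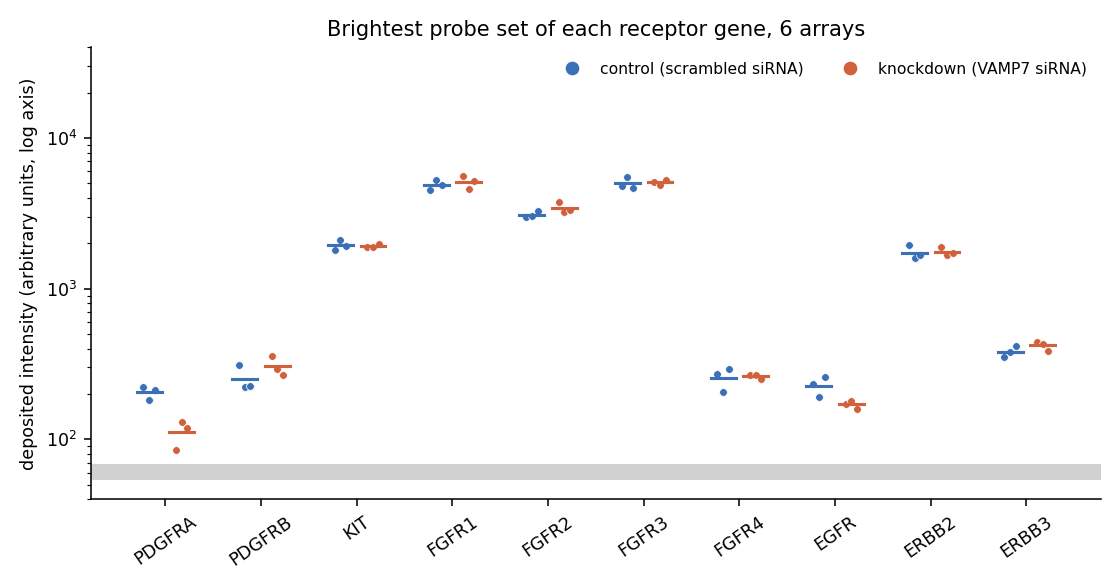
Deposited intensity (arbitrary units, log axis) of the brightest probe set of each of the 10 receptor genes. Points are the 3 control (blue) and 3 knockdown (orange) arrays, short bars are group means, and the grey band spans the 95th percentiles of olfactory receptor probe sets on the 6 arrays (54.9 to 67.5). PDGFRA and EGFR are the 2 genes (20%) whose groups do not overlap, beside 13% of all genes, and all points lie above the band.

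The FGF receptors FGFR1, FGFR2 and FGFR3 had the probe sets farthest above that level among the FGF receptors. FGFR1, the broadly expressed FGF receptor, read 4518, 5241 and 4875 on the control arrays and 5595, 4615 and 5160 on the knockdown arrays with its probe set 211535_s_at. FGFR3, best known for restraining cartilage growth, read 4787, 5557 and 4653 in control and 5126, 4899 and 5270 in knockdown with 204379_s_at. In both genes the groups overlapped. All 7 FGFR1 probe sets were above the olfactory receptor level on all arrays, with control means from 279.5 to 4878 units. FGFR3 had a second probe set, 204380_s_at, at 43.0 ± 14.5 in control (SD, n = 3), below that level on every array.

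KIT and ERBB2 were each read clearly by 1 probe set. KIT, the receptor of stem cell factor, had a single probe set, which read 1814, 2094 and 1909 in control and 1899, 1896 and 1980 in knockdown. ERBB2, the preferred partner of the other EGF receptor family members, read 1937, 1588 and 1666 in control and 1890, 1666 and 1735 in knockdown with 216836_s_at. In both genes the arrays of the 2 groups overlapped. The other 2 ERBB2 probe sets had control means of 39.9 and 16.3 units and were not above the olfactory receptor level on all arrays.

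PDGFRB, FGFR4 and ERBB3 read nearer to the olfactory receptor level. ERBB3, a neuregulin receptor, read 354.6, 377.9 and 414.8 in control and 444.7, 432.4 and 385.0 in knockdown with 226213_at, and 2 of its 5 probe sets were above the olfactory receptor level on all arrays. FGFR4, known as the receptor of FGF19 in liver, read 270.0, 207.7 and 292.4 in control and 268.9, 265.7 and 251.5 in knockdown with 204579_at, the 1 of its 4 probe sets above that level on all arrays. PDGFRB, the PDGF receptor of pericytes and smooth muscle, read 312.6, 221.9 and 224.6 in control and 355.6, 293.4 and 268.9 in knockdown on its single probe set. The groups of all 3 genes overlapped, in PDGFRB because control replicate 1 read above 2 of the 3 knockdown arrays.

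PDGFRA was lower in knockdown on its brightest probe set without passing the test. Probe set 203131_at read 221.9, 181.4 and 213.4 in control and 85.7, 131.4 and 119.5 in knockdown. The 3 knockdown arrays all lay below the lowest control array, and the mean fell from 205.6 ± 21.4 to 112.2 ± 23.7 units (SD, n = 3), which is 54.6% of control. Limma gave a log2 fold change of -0.66 with SE 0.14 (95% interval -1 to -0.33, unadjusted p = 0.00234, adjusted p = 0.608), a 1.58-fold difference on the log2(intensity + 50) scale. By unadjusted p it ranked 201 of the 54613 probe sets. Knockdown replicate 1 was the lowest of the 6 arrays, and without it the log2 fold change was -0.54.

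The other 3 PDGFRA probe sets did not show a difference of that size. Probe set 215305_at read 84.9, 122.0 and 109.7 in control and 106.6, 92.9 and 57.3 in knockdown. Its groups overlapped, with a log2 fold change of -0.21 (95% interval -0.62 to 0.20, adjusted p = 0.875 in limma). Probe set 1554828_at read 37.1, 17.2 and 39.7 in control and 17.6, 24.0 and 33.5 in knockdown. Probe set 211533_at read between 0.749 and 9.06 units over the 6 arrays. These last 2 were below the olfactory receptor level on every array, with log2 fold changes of -0.11 and -0.01, and the offset of 50 compresses any change at such signals. The mean of the 4 probe sets gave -0.25 (limma adjusted p = 0.75 over genes).

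**Figure D2:**
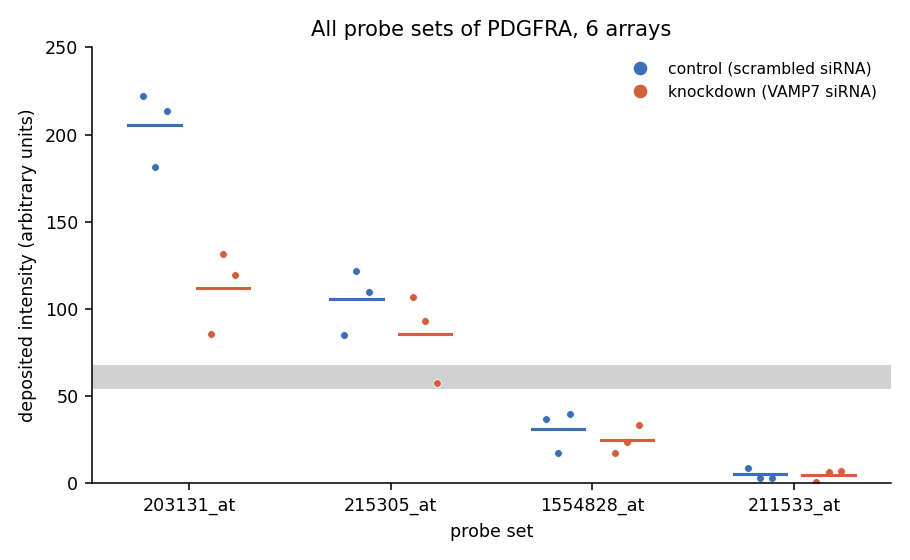
Deposited intensity (arbitrary units) of the 4 probe sets of PDGFRA. Points are the 3 control (blue) and 3 knockdown (orange) arrays, short bars are group means, and the grey band spans the 95th percentiles of olfactory receptor probe sets (54.9 to 67.5). The groups are apart on 203131_at, overlap on the other 3, and 2 probe sets lie under the band.

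Markers of the cell types in which PDGFRA is usually found gave the following values. The 15 fibroblast markers had a mean log2 level of 8.74 to 8.83 over the control arrays and 8.71 to 8.91 over the knockdown arrays, with 7 members above 0, 8 below and 0 called. Endoderm markers (9 measured) ran from 6.32 to 6.46 and from 6.29 to 6.49, and mesoderm markers (10 measured) from 7.19 to 7.35 and from 7.11 to 7.51. In these 3 lists the mean levels of the groups overlapped. The 10 muscle markers ran from 8.05 to 8.20 in control and from 8.01 to 8.04 in knockdown, and the 11 neural markers from 8.94 to 9.03 and from 9.05 to 9.12. The mean levels of those 2 lists did not overlap between the groups, though 0 of their genes were called. The muscle gap was narrow, 8.052 against 8.038. TNNC1 was the muscle gene without overlap (log2 fold change -0.64, limma adjusted p = 0.461). In the neural list it was SYP, below the olfactory receptor level (0.30, limma adjusted p = 0.684). Whether either list stays apart without that gene was not tested. Above 0 were 4 of 10 muscle markers and 8 of 11 neural markers, beside 50.8% of all genes. After quantile normalization these were 2 and 8, and after median centring 1 and 7. In the muscle and neural lists 1 gene each did not overlap, beside 13% of all genes. Fibroblast markers had 2 higher and 2 lower without overlap, and endoderm markers 1 and 1. Mesoderm markers had 1 and 0, where 6.68% of all genes were higher and 6.29% lower. The part of these marker lists in the PDGFRA result was not tested. The same holds for the difference between fewer cells that make PDGFRA and less PDGFRA RNA in each cell, which cannot be told apart in bulk RNA.

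Among 9888 genes at or above the median gene, those whose pattern over the 6 arrays was most like that of PDGFRA were the DNA helicase gene RECQL (Pearson r = 0.992), TMT1A (r = 0.99) and ZNHIT3 (r = 0.985). Their log2 fold changes were -0.27, -0.45 and -0.14, with limma adjusted p from 0.607 to 0.812. The 6 points share the same arrays and the same 2 groups, and the 3 genes were the top of a very long list, so the likeness is a description.

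EGFR, the receptor of EGF and TGF-alpha, was the other receptor whose brightest probe set was lower in all 3 knockdown arrays. Probe set 224999_at read 233.1, 191.3 and 258.8 in control and 171.8, 180.3 and 159.1 in knockdown. The gap between the groups was narrow, 191.3 against 180.3 units. Limma gave a log2 fold change of -0.33 with SE 0.12 (95% interval -0.62 to -0.035, adjusted p = 0.74). Probe set 201984_s_at, which read 238.8, 204.1 and 178.6 in control and 182.7, 179.6 and 179.1 in knockdown, gave -0.15 with overlapping groups. A further probe set above the olfactory receptor level on all arrays, 201983_s_at, gave 0.04. The remaining 6 of the 9 EGFR probe sets had log2 fold changes from -0.21 to 0.15, and the mean of all 9 gave -0.05.

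FGFR2, the receptor whose epithelial and mesenchymal splice forms bind different FGFs, had the most probe sets, 11. Its brightest, 203638_s_at, read 2987, 3033 and 3289 in control and 3761, 3243 and 3309 in knockdown, with overlapping groups and a log2 fold change of 0.14 (95% interval -0.11 to 0.40). The next, 208228_s_at, read 1628, 1664 and 1795 in control and 2075, 2037 and 1843 in knockdown. Its 3 knockdown arrays all lay above the control arrays, at a log2 fold change of 0.22 (SE 0.10, limma adjusted p = 0.77). Probe set 208229_at read 93.9, 97.0 and 104.8 in control and 110.3, 134.5 and 150.0 in knockdown, again without overlap, at 0.28 (limma adjusted p = 0.749).

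All 5 FGFR2 probe sets above the olfactory receptor level had fold changes above 0, from 0.07 to 0.28, also after quantile normalization and median centring, and none passed the test. Below that level the directions were mixed, and the mean of all 11 probe sets gave 0.025 (limma adjusted p = 0.969 over genes). Probe set 208234_x_at read 33.3, 45.4 and 17.7 in control and 9.98, 9.85 and 17.1 in knockdown, a log2 fold change of -0.39 without overlap. Probe set 211399_at read 5.88, 29.0 and 12.6 in control and 3.86, 5.09 and 2.76 in knockdown, at -0.27, or -0.13 without control replicate 2. Both sat in the range of olfactory receptor probe sets on every array. Probe sets whose name ends in x_at can also match other sequences, and the sources used here do not say which splice forms each FGFR2 probe set reads.

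**Figure D3:**
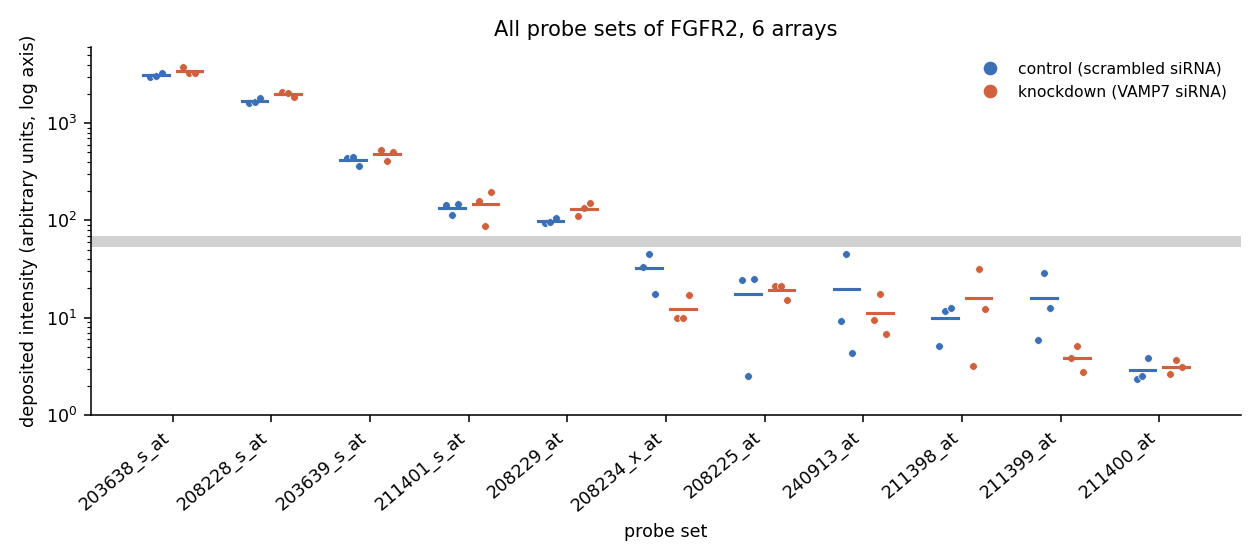
Deposited intensity (arbitrary units, log axis) of the 11 probe sets of FGFR2, ordered by mean. Points are the 3 control (blue) and 3 knockdown (orange) arrays, short bars are group means, and the grey band spans the 95th percentiles of olfactory receptor probe sets (54.9 to 67.5). The 5 probe sets above the band have knockdown means above control means, and the 6 under it scatter in both directions.

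The 7 FGFR1 probe sets all had fold changes above 0, from 0.02 to 0.34, but 6 did after quantile normalization and 5 after median centring, and none passed the test. Probe set 215404_x_at was the 1 without overlap, at 264.7, 306.7 and 267.2 in control against 359.4, 317.7 and 310.0 in knockdown (log2 fold change 0.20, limma adjusted p = 0.803). Probe set 210973_s_at had the highest value, 0.34, with a wide 95% interval of -0.23 to 0.91, and its knockdown arrays ran from 322.7 to 639.0 units. The probe sets of a gene share its transcripts and the same arrays and are not replicates of each other. Of the 47 receptor probe sets, 29 had a fold change above 0 (61.7%), beside 53.8% of all probe sets. After median centring these were 19 of 47 and 43.7%, and after quantile normalization 25 of 47 and 50.2%.

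The remaining receptors did not pass the test either. Log2 fold changes were 0.24 for PDGFRB (95% interval -0.14 to 0.61; 0.14 without knockdown replicate 1 and 0.37 without control replicate 1) and 0.12 for ERBB3 (-0.14 to 0.38). KIT was at -0.01, ERBB2 at 0.03, FGFR3 at 0.03 and FGFR4 at 0.03, 4 values whose sign turned under another scaling or when an array was left out or weighted. For KIT the 95% interval was -0.25 to 0.23 and for FGFR3 -0.23 to 0.29. The highest fold change of the 47 was that of the FGFR4 probe set 211237_s_at, 0.49 (95% interval -0.17 to 1.14). It read 11.0, 5.70 and 58.5 in control and 64.5, 30.0 and 60.8 in knockdown, with overlapping groups near the olfactory receptor level.

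Taken as a family, 0 of the 47 probe sets passed at an adjusted p under 0.05 in limma, where the share over all probe sets was 0.00183%. The smallest adjusted p was 0.608. At an unadjusted p under 0.05 there were 4 of 47 probe sets (8.51%), 1 higher (FGFR2) and 3 lower (PDGFRA, EGFR and FGFR2), against 6.62% of all probe sets, 4.13% higher and 2.48% lower. The groups did not overlap for 7 probe sets (14.9%), 3 higher and 4 lower, against 12.4% of all, 7.28% higher and 5.15% lower. Groups apart by over 0.1 on the log2 scale were seen for PDGFRA 203131_at alone, 2.13% of the members against 4.26% of all probe sets. The median fold change of the members was 0.03 and that of all probe sets 0.02. These shares were near the background, so they are no result about the family.

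**Figure D4:**
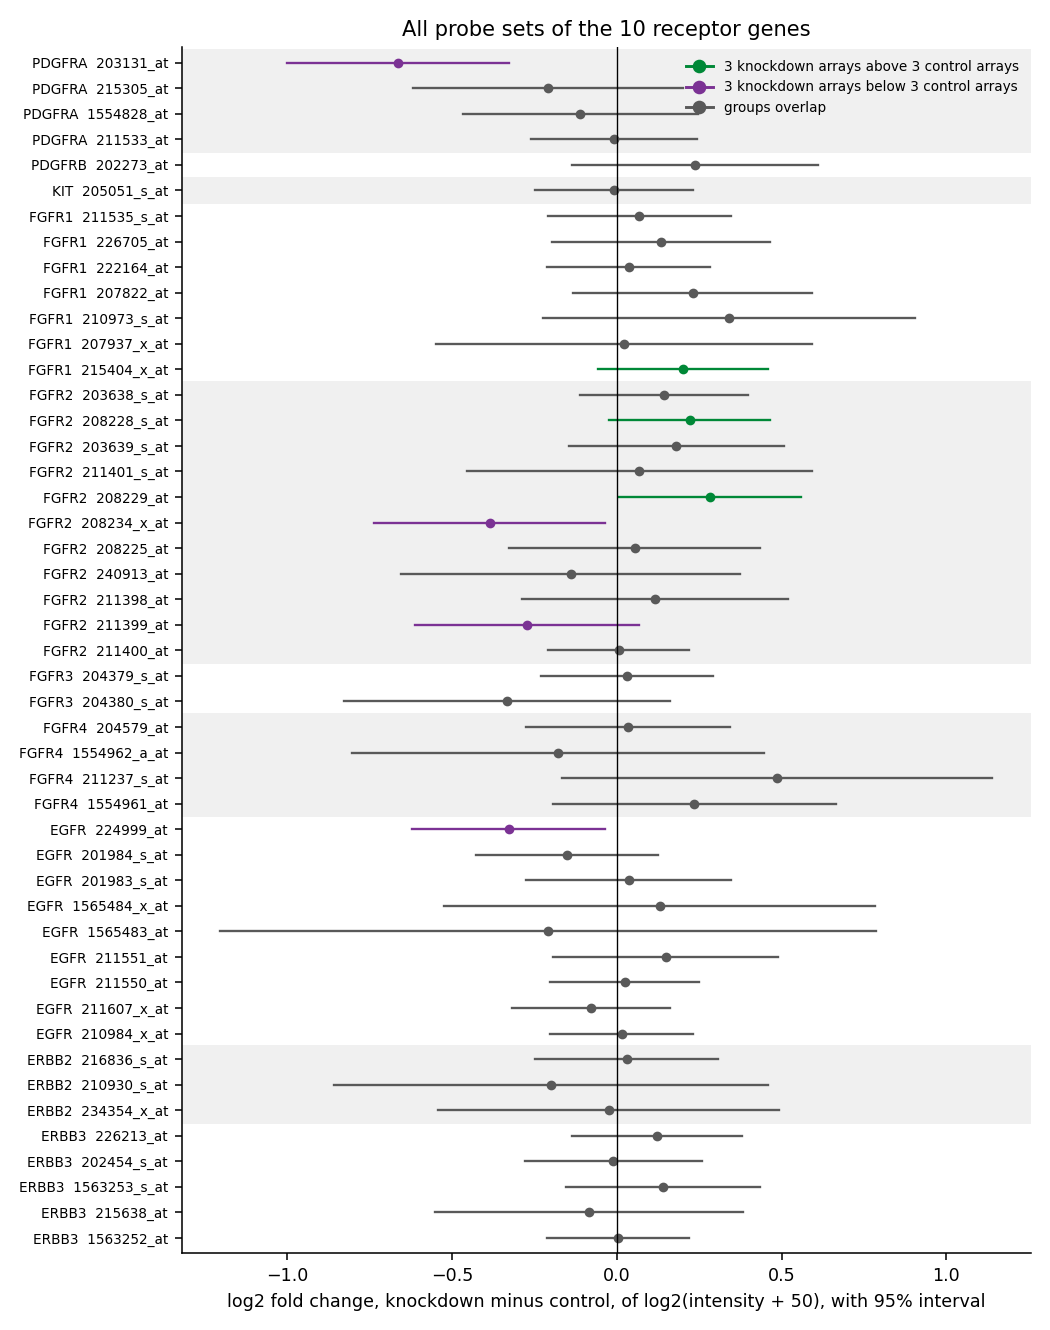
Log2 fold change (knockdown minus control, of intensity plus 50) with its 95% interval for all 47 probe sets, grouped by gene and ordered by mean within a gene. Green marks the 3 probe sets whose knockdown arrays all lie above control, purple the 4 whose knockdown arrays all lie below, and grey those that overlap. PDGFRA 203131_at has the lowest value, -0.66, and the intervals of 2 probe sets reach past a 2-fold difference.

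With 1 probe set a gene and adjustment over 19775 genes, 0 of the 10 receptors passed, where 0.00506% of all genes did. The smallest adjusted p in limma was 0.494, for PDGFRA. The groups did not overlap for 2 of the 10 genes (20%), PDGFRA and EGFR, both lower, beside 13% of all genes in either direction. Of the 10 genes, 7 were above 0, as were 50.8% of all genes, and 3 below (6 above after quantile normalization and 4 after median centring), with a median of 0.03 against 0.003 over all genes. On the log2 scale with the offset, the 95% interval lay within a 2-fold difference in either direction for all 10. It lay within a 1.5-fold difference for 7. The interval reached a 1.5-fold lower value for PDGFRA and EGFR and a 1.5-fold higher value for PDGFRB. For PDGFRA the lower limit was -0.989, only just inside a 2-fold fall. The offset understates changes of dim genes, and with an offset of 16 the PDGFRA log2 fold change was -0.802. The interval therefore does not exclude a 2-fold fall in PDGFRA RNA.

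The ligands of these receptors did not pass either. None of the 5 ligands of the PDGF receptors and KIT was called. All 5 were below 0 under each scaling, with a median of -0.05, where 50.8% of all genes were above 0. Apart from PDGFB, each log2 fold change was smaller in size than its SE. PDGFA, whose homodimer binds PDGFRA alone, read 2146, 2141 and 2597 in control and 2255, 2100 and 2071 in knockdown, with overlapping groups (log2 fold change -0.09, or -0.002 without control replicate 3). PDGFB read 93.8, 94.5 and 68.9 in control and 44.4, 99.3 and 9.27 in knockdown, with groups that overlapped (-0.52, limma adjusted p = 0.806), and its value was -0.19 without knockdown replicate 3 and -0.85 without knockdown replicate 2. KITLG, the ligand of KIT, was at -0.05.

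Of 18 measured FGF ligands, 0 were called, 8 were above 0 and 10 below, and 2 were lower without overlap, beside 6.29% of all genes. FGF6, a muscle FGF, had the smallest p, reading 88.2, 62.5 and 62.1 in control and 22.8, 48.1 and 15.2 in knockdown (log2 fold change -0.63, limma adjusted p = 0.623), values around and below the olfactory receptor level. FGF2, the FGF added to cultures of pluripotent cells, read 794.5 ± 177 on control and 836.8 ± 109 on knockdown arrays (SD, n = 3). On the other side of 0, FGF20 was at 0.33, or 0.04 without knockdown replicate 3, which read 49.2 units where the other arrays read 2.54 to 5.19. Of 9 measured EGF and neuregulin ligands, 0 were called and 4 were above 0. NRG1, a ligand of ERBB3, read 2375 ± 233 on control and 2331 ± 461 on knockdown arrays (SD, n = 3), while NRG4 was at 0.24 (0.11 to 0.39 with 1 array left out) and NRG3 at -0.21 (-0.36 to -0.07).

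Coreceptors and heparan sulphate enzymes, which help FGFs bind, had 6 of 16 members above 0 and 0 called. SDC4, a cell surface heparan sulphate proteoglycan, read 1752 ± 131 on control and 1448 ± 68.1 on knockdown arrays without overlap (SD, n = 3; log2 fold change -0.27, limma adjusted p = 0.728). GPC3, a glypican abundant in embryonic tumours, was at -0.05 and FLRT3, an FGF receptor partner, at 0.14 (0.09 without knockdown replicate 1). Of 39 other measured receptor tyrosine kinases, 0 were called, 20 were above 0 and 19 below, and 8 did not overlap, 6 of them higher, beside 13% of all genes, 6.68% higher and 6.29% lower. EPHA3, an ephrin receptor, had the smallest p of those above 0, at a log2 fold change of 0.29. It read 3.16 ± 3.34 units on control and 15.2 ± 5.17 on knockdown arrays (SD, n = 3), under the olfactory receptor level. Its log2 fold change was 0.08 as the mean over its probe sets and 0.71 with an offset of 16. EPHB4, also an ephrin receptor, was at -0.26, or 0.04 as the mean over its probe sets. ROR1, a WNT5A receptor, was at 0.16 (0.11 without control replicate 1).

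Downstream, the adaptors and kinases had 13 of 21 measured members above 0 (8 after median centring) and 0 called. MAPK3, which encodes ERK1, read 416.9, 453.6 and 453.8 in control and 536.2, 582.4 and 497.7 in knockdown, without overlap (log2 fold change 0.26, limma adjusted p = 0.728). SHC1, an adaptor of EGF receptors, was at -0.20, or 0.05 as the mean over its probe sets and -0.10 without control replicate 3, and PTPN11, the phosphatase SHP2, at 0.02. Feedback inhibitors and turnover factors had 10 of 20 above 0 (7 after median centring) and 0 called. STAM, an endosomal sorting factor of ubiquitinated receptors, read 1683 ± 144 and 1402 ± 116 (SD, n = 3; -0.26), CBL, the ubiquitin ligase of activated receptors, was at 0.19 (0.11 without knockdown replicate 1), and IL17RD, an FGF antagonist, at 0.17 (0.07 without knockdown replicate 1). Transcription factors and other genes induced through ERK had 6 of 13 above 0 (3 after median centring) and 0 called. EGR1 read 1925, 1943 and 1887 in control and 2637, 2210 and 2179 in knockdown without overlap (0.28, limma adjusted p = 0.728, or 0.17 as the mean over its probe sets), IER3 was at -0.20 (-0.09 without knockdown replicate 3) and CCND1, cyclin D1, at 0.07.

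**Figure D5:**
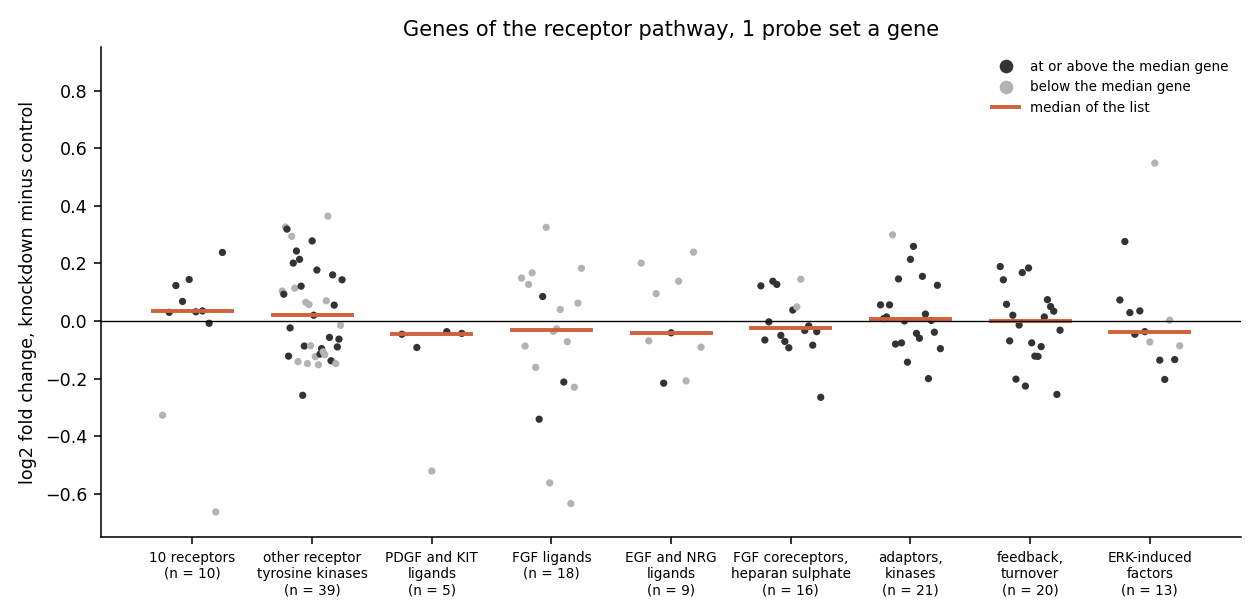
Log2 fold change (knockdown minus control, of intensity plus 50) of every measured gene in the receptor list and 8 pathway lists, with 1 probe set a gene. Dark points are genes at or above the median gene, light points dimmer genes, and orange bars list medians, which lie between -0.05 and 0.03. PDGFRA, at -0.66, is the lowest point of all lists shown.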

How the data were processed

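The deposited intensities were linear, with 1 value per probe set; equal trimmed means show that they had been scaled to 1 target per array. RMA is named without a version per the submitters' processing notes, but RMA gives log2 values, which the deposited intensities are not. The sources used here do not give the software or the background correction. Probe sets naming 1 gene (41091) were named from the platform annotation, with symbols updated through gene identifiers (99.87% matched GRCh38.p14); 1801 named several genes and 11721 none listed, and 62 controls were left out. Of the probe sets naming several genes, 0 named a member.

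Here log2(intensity + 50) was fitted with limma 3.58.1 under R 4.3.3 (lmFit, then eBayes at its default options) over 54613 probe sets, and over 19775 genes with the probe set of highest mean. Fold changes are on that scale, which understates changes of dim genes. P-values were adjusted by Benjamini-Hochberg and called under 0.05; an exact permutation test of 3 against 3 cannot go below 0.1 and was not used. The code was tested on 20 simulated data sets with 200 changed probe sets. It recovered 4.7% of 1.5-fold changes and 70.5% of 2-fold changes, with 5.4 false calls on average, so most changes near 1.5-fold would not pass. The planted changes went up to 4-fold. With fewer changed probe sets the cutoff of the adjustment is stricter, and 1 was called in the real data. These rates are therefore not the recovery in the real data, where 2-fold changes may also not pass. Named were VAMP7, the members, and from each pathway list the gene of smallest p on each side of 0 and the brightest gene, plus genes chosen after their values were seen (KITLG). The members and lists were chosen with earlier results of these data known. Alternatives covered offsets, a filter on dim features, quantile normalization, median centring, a replicate block, array weights, eBayes options, each array left out, a mean over a gene's probe sets and a minimum gap. Same-numbered arrays did not deviate together (r = -0.01, 0.007 and -0.017). Precision is limited by how many arrays there are.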

Additional observations from a re-analysis of the deposited data

How the results depend on the processing

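Under every alternative 0 receptor probe sets and 0 receptor genes were called, and PDGFRA 203131_at stayed below 0, from -0.80 (offset 16) to -0.53 (offset 100), with limma adjusted p from 0.433 to 0.791; leaving out 1 array gave -0.75 to -0.54. EGFR 224999_at ranged from -0.43 to -0.25. The replicate number as a block left PDGFRA at -0.66 (limma adjusted p = 0.791). The labels do not say whether arrays of the same number were paired. Called probe sets numbered 3 with trend and robust options, against 1, and called genes 2 with those options, with offset 16 and with a mean over each gene's probe sets; the cause was not tested. A gap of at least 0.1 between groups left 1 receptor probe set of 7. With the 90th or 99th percentile of olfactory receptor probe sets, chosen after seeing the data, 25 or 22 receptor probe sets were above the level on all arrays, against 24. The 99th percentile left PDGFRA without such a probe set.

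Values near 0 changed sign. Quantile normalization put FGFR4 at -0.007. Median centring put FGFR3 at -0.01, FGFR4 at -0.007, ERBB2 at -0.012 and PTPN11 at -0.018. Array weights put KIT at 0.009, ERBB2 at -0.001 and NRG1 at 0.033. The mean of probe sets put FGFR3 at -0.15, ERBB2 at -0.065, NRG1 at 0.126, EPHB4 at 0.037, SHC1 at 0.049 and PTPN11 at -0.014. Leaving out 1 array gave ranges of -0.054 to 0.047 for KIT, -0.017 to 0.11 for FGFR3, -0.086 to 0.119 for FGFR4, -0.028 to 0.112 for ERBB2, -0.063 to 0.239 for FGF2, -0.17 to 0.114 for NRG1, -0.031 to 0.087 for PTPN11 and -0.033 to 0.162 for CCND1.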
